A study of Mus musculus with 24 samples.

Results

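ATP-binding cassette (ABC) transporter genes of the mouse jejunal villus were taken as every gene of the count table whose symbol has the letters Abc, a subfamily letter from a to g and a number. Abca1, Abcg5 and Abcg8 were left out. The rule gave 33 of 17811 genes. Epithelium was freed from the jejunum with EDTA in 4 mice (C57BL/6 males on regular chow, post natal age 10 weeks), and cells were placed along the villus by FACS, from their staining with antibodies to CD73 and CD26. This gave each mouse 6 zones, V1 (most bottom), V2 (bottom), V3 (bottom-middle), V4 (middle), V5 (middle-tip) and V6 (tip), and bulk mcSCRB-seq gave 4 libraries per zone and 24 in all. The labels name no transgene and no treatment, and the zone of a library rests on the antibody staining.

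ABC proteins use ATP to move substrates across membranes. In the intestine, pumps of the brush border return drugs and conjugated compounds to the lumen. Others act on the basolateral membrane, in peroxisomes, in mitochondria or in lysosomes. The E and F subfamilies have the ATP-binding domains but span no membrane, and work with the ribosome.

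Levels are given as CPM, the usual depth-scaled unit for sequencing counts, computed from unique molecular identifiers (UMIs) after TMM scaling. Each UMI stands for a molecule read at its 3′ end, so levels were not divided by gene length. The libraries held 806541 to 2266261 UMIs, and the 33 genes took 0.0655% to 0.102% of them. Zones of a mouse are paired, and replicates are separate mice. A gene was called where the Benjamini-Hochberg adjusted p of edgeR's quasi-likelihood test was under 0.05 over all 9328 genes that passed a filter on low counts. Slopes are log2 changes per zone ± SE over the 24 libraries, and all comparisons use the same libraries.

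All enterocyte markers had counts in every library. Their summed level, over 10 genes such as Fabp2 and Apoa1, had a mean of 16332 ± 6704 CPM in V1, 60035 ± 12176 in V3 and 84233 ± 13420 in V6 (SD, n = 4). The sum of 9 goblet cell markers, such as Muc2 and Tff3, had a mean of 72583 ± 24653 CPM in V1, 36648 ± 14246 in V2 and 11634 ± 4983 in V3 (SD, n = 4), and stayed between 11370 and 11614 in V4 to V6. V1 libraries ranged from 47484 to 94499 CPM for the goblet sum and V3 libraries from 5411 to 16350, so these groups did not overlap. Of the tested markers, 9 of 10 enterocyte genes rose toward the tip, beside 22.1% of all tested genes. All 9 of 9 goblet cell genes fell, beside 22.8%. In such bulk samples, fewer cells of a type and less RNA per cell cannot be told apart. The part of the goblet cell change in the results on ABC transporter genes was not tested. Fits without V1 and over V3 to V6 alone are given below. The fit without V1 keeps the goblet drop from V2 to V3, where the enterocyte mean also went from 36412 to 60035 CPM.

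**Figure D1:**
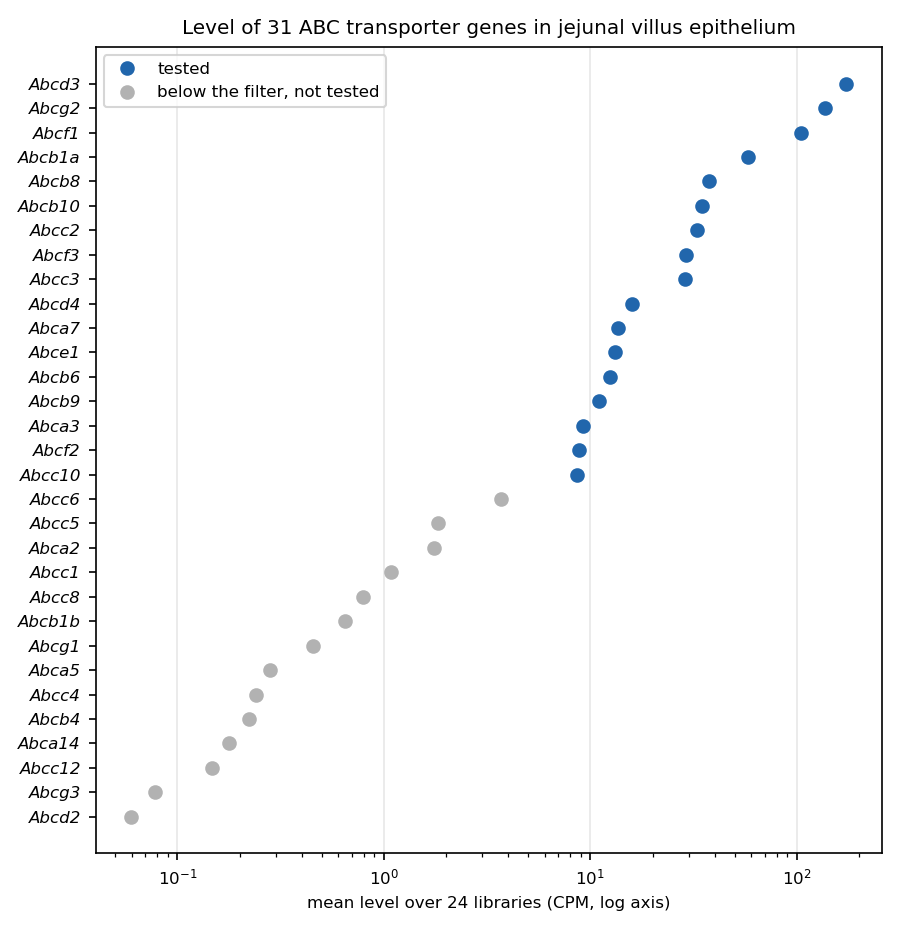
Mean level of 31 ABC transporter genes over 24 libraries (CPM, log axis), with 17 tested genes in blue and the 14 below the filter in grey. The tested genes run from Abcc10 at 8.66 CPM to Abcd3 at 173 CPM, and the others lie at or under the 3.69 CPM of Abcc6.

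Of the 33 genes, 19 passed the filter and held 98.6% of the family's 30859 UMIs. Abcd3, Abcg2 and Abcf1 together gave 48.6% of them. The other 14 were Abca2, Abca5, Abca14, Abcb1b, Abcb4, Abcc1, Abcc4, Abcc5, Abcc6, Abcc8, Abcc12, Abcd2, Abcg1 and Abcg3, with 2 to 133 UMIs over all libraries.

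Along the villus, the brush border efflux pump genes Abcb1a, Abcg2 and Abcc2, the lipid transporter gene Abca7 and the ribosome-associated gene Abcf1 rose. V3 was above V1 in 4 of 4 mice for Abcb1a, Abcg2, Abcc2 and Abcf1, and in 3 of 4 for Abca7. The same held in 4 of 4 for Abcd3 and Abcb9, whose slopes were not called. The share over all genes was not computed. Abce1, the gene of a ribosome recycling factor, and Abcb8, the gene of a mitochondrial transporter, fell. Over V1 to V6, 6 of the 19 tested genes rose (31.6%), beside 22.1% of all tested genes, and 2 fell (10.5%), beside 22.8% of all. The median slope of the 19 was 0.020 beside -0.0047 over all tested genes, with 14 above 0 and 5 below. With mouse in the model the 6 rises were kept, beside 27.6% of all genes called higher, and Abcf2 joined the falls (slope -0.12 ± 0.050, adjusted p = 0.0343), beside 27.8% of all called lower. When libraries were scaled by total UMIs without TMM, 2 genes rose on the slope, Abcc2 among them, beside 13.0% of all genes, and 4 fell (Abce1, Abcb8, Abcf2 and Abcf3), beside 39.9%. The slopes of Abcb1a, Abcg2, Abca7 and Abcf1 lost their calls. For V6 minus V1 the 6 rises and 2 falls became 3 and 3, beside 12.3% and 33.3% of all genes. That scaling shifted the median difference between V6 and V1 over the 9328 genes to -0.34 (log2), where TMM gave -0.00071.

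No change was called above V3. Over V3 to V6 edgeR called 0 of the 19 higher, beside 2.53% of all tested genes, and 0 lower, beside 0.0214%. At an unadjusted p under 0.05 there were also 0 in each direction, and DESeq2 and limma-voom called 0. With mouse in the model 1 gene was lower at an unadjusted p under 0.05 and 0 were called. The smallest adjusted p of the 19 by edgeR was 0.598, which does not show that levels were equal. The median slope there was -0.027 beside -0.0097 over all genes. With V1 alone left out, 0 of the 19 genes rose over V2 to V6 by edgeR, beside 9.61% of all genes, and 0 fell, beside 2.85% (3 and 2 at an unadjusted p under 0.05). With mouse in that model, an alternative chosen after seeing the data, 3 genes rose, among them Abca7 and Abcg2, beside 16.9% of all genes, and Abce1 and Abcb8 fell, beside 13.3%.

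**Figure D2:**
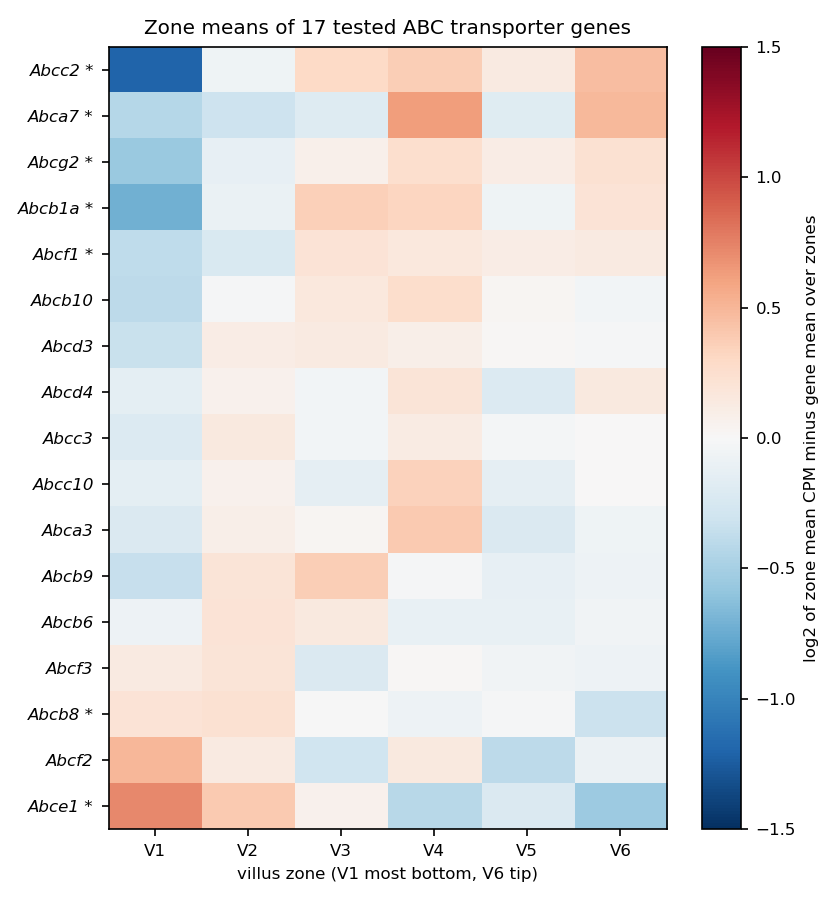
Zone means of 17 tested genes as log2 CPM minus each gene's mean over the 6 zones, ordered by slope from the steepest rise at the top; stars mark genes called on the slope over V1 to V6. The 5 upper rows are lowest in V1, and Abce1 at the bottom is highest there.

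Summed over the 33 genes, the level had a mean of 646 ± 79.5 CPM in V1, 829 ± 121 in V2, 913 ± 89.6 in V3, 964 ± 76.2 in V4, 868 ± 66.9 in V5 and 894 ± 62.2 in V6 (SD, n = 4). The highest V1 library had 728 CPM and the lowest V6 library 826, so these groups did not overlap after TMM scaling. Without it they overlapped: the 33 genes took 0.0655% to 0.0790% of the UMIs of V1 libraries (mean 0.0733%) and 0.0682% to 0.0898% of those of V6 libraries (mean 0.0809%). By zone means, 7 of the 19 tested genes were highest in V4, 5 in V2, 4 in V3, 2 in V1, 1 in V6 and 0 in V5.

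**Figure D3:**
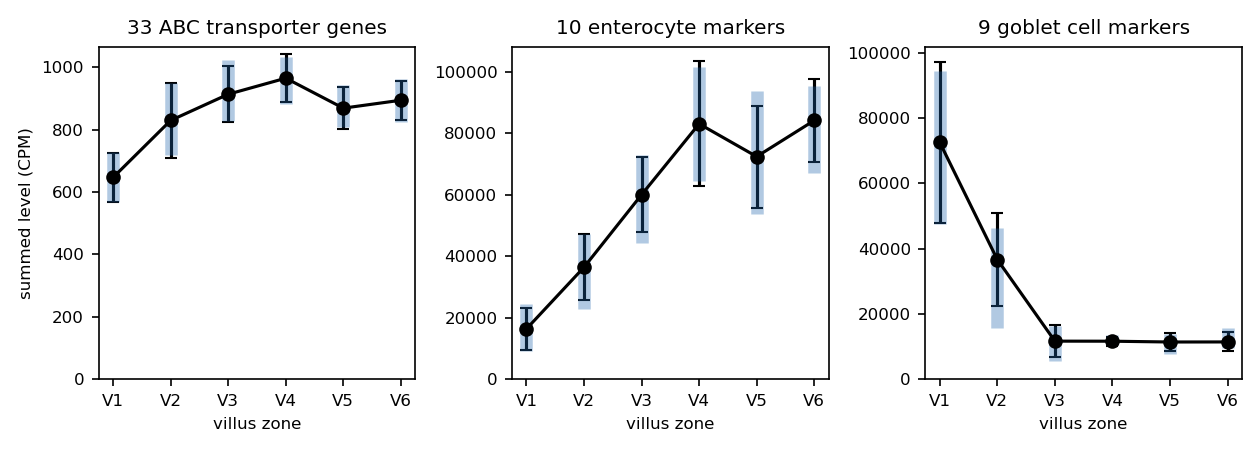
Summed level (CPM after TMM scaling) by zone for the 33 ABC transporter genes, 10 enterocyte markers and 9 goblet cell markers; points and bars are means and SD of 4 mice, and pale blocks span the lowest to the highest library. The ABC sum goes from 646 CPM in V1 to 964 in V4, while the goblet sum goes from 72583 in V1 to 11634 in V3.

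The sequences before the start sites of Abcb1a, Abcc2 and Abce1 are shown because these genes carry the rise of the efflux pumps and the steepest fall, and each has a single window in the RefSeq promoter table (GRCm38.p6). Each window holds 250 bases before and 50 after the start. Of the 33 genes, 23 matched that table. Capitals mark matches, on either strand, to 9 motifs. Of the common promoter motifs, the GC box was searched as GGGCGG, the box of the NF-Y factor as CCAAT and the box of the TATA-binding protein as TATAAA. The E box was searched as CACGTG, the AP-1 motif as TGANTCA and the core of the antioxidant response element as TGACNNNGC. The motif of many nuclear receptors was searched as AGGTCA, that of HNF4 as CAAAGTNCA, and that of HNF1 by its long palindrome. No matches overlap in the 3 windows.
Abcb1a, chr5:8566841-8567140, plus strand: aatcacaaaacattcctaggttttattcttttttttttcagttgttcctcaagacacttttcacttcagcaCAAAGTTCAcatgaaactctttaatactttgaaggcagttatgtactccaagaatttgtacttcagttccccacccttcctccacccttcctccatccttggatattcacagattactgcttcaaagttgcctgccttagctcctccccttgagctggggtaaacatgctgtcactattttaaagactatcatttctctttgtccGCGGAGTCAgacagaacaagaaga
Abcc2, chr19:43782058-43782357, plus strand: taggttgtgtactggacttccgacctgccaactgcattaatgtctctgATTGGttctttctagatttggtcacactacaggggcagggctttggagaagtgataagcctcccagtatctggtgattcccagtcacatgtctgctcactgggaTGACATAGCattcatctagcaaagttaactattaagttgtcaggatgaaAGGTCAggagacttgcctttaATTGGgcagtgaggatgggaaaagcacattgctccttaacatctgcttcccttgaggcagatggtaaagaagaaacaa
Abce1, chr8:79711691-79711990, minus strand: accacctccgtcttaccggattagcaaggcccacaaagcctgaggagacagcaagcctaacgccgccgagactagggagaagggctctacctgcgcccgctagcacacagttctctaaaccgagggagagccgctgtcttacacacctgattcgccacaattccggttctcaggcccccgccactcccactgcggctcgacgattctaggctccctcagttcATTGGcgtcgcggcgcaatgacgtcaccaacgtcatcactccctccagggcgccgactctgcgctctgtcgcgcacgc

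The Abcb1a window holds an HNF4 match at position -179 from the start, a motif present in 1.41% of all 32851 windows, and an antioxidant element core, present in 12.4%. Its start lies far upstream of the GENCODE M21 gene: the window ends at position 8567140 of chromosome 5, and the gene begins at 8660077. Whether the counted Abcb1a transcripts begin in this window was not tested. The Abcc2 window holds an antioxidant element core, an AGGTCA (16.3% of windows) and 2 CCAAT matches (37.4%). The Abce1 window holds 1 CCAAT match. The TATA box (13.6%), the E box (7.15%), AP-1 (7.81%), the GC box (35.7%) and HNF1 (0.00913%) had no match in these windows. A match is only a run of letters, and binding was not measured.

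Abcb1a encodes P-glycoprotein, which pumps many hydrophobic drugs into the lumen. It had 22.1, 44.6, 27.2 and 43.4 CPM in V1 of mice 1 to 4, 51.9, 64.6, 36.3 and 57.2 in V2, and 87.9, 65.9, 55.1 and 79.8 in V3. It then had 86.4, 53.6, 70.6 and 72.2 CPM in V4, 51.0, 48.5, 53.6 and 62.7 in V5, and 59.0, 68.9, 60.1 and 73.0 in V6. V1 was the lowest zone in every mouse, and V1 and V6 did not overlap. The slope was 0.13 ± 0.036 (adjusted p = 0.00429) and V6 minus V1 was 0.93 ± 0.22 (1.90-fold, adjusted p = 0.00173). The mean in V3 was 2.10 times that in V1, and that in V6 was 0.904 times that in V3. The slope over V2 to V6, with V1 left out, was 0.019 (adjusted p = 0.803). Under total UMI scaling the slope over V1 to V6 was 0.068 and lost its call (adjusted p = 0.138). Exons of Abcb1a (chromosome 5, 8660077 to 8748575) overlap Gm42686 on the other strand, and whether strand was used in counting is not given in the sources used here. Its near copy Abcb1b had 23 UMIs in all libraries, and reads that fit both genes of the pair may be split between them.

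Abcg2 encodes breast cancer resistance protein, an efflux pump of the brush border for drugs, urate and porphyrins. It had 79.6, 70.3, 118 and 98.7 CPM in V1 of mice 1 to 4, 88.0, 94.9, 167 and 145 in V2, and 114, 151, 154 and 149 in V3. It then had 112, 160, 203 and 166 CPM in V4, 136, 126, 194 and 128 in V5, and 139, 188, 163 and 143 in V6. Every V6 library was above every V1 library. The slope was 0.14 ± 0.036 (adjusted p = 0.00342) and V6 minus V1 was 0.79 ± 0.21 (1.73-fold, adjusted p = 0.00567). Without mouse 2, V6 minus V1 was 0.56 (adjusted p = 0.0835). With V1 left out the slope was 0.078 (adjusted p = 0.276). Total UMI scaling ended both calls (slope 0.074, adjusted p = 0.0768, and V6 minus V1 0.46, adjusted p = 0.0677). Abcg2 lies on chromosome 6 (58584523 to 58695676).

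Abcc2 encodes multidrug resistance protein 2, which exports glucuronide and glutathione conjugates across the brush border, and it had the largest V6 minus V1 of the 19 genes. It had 15.8, 7.43, 13.0 and 17.2 CPM in V1 of mice 1 to 4, 36.9, 16.6, 32.5 and 31.9 in V2, and 58.2, 17.9, 37.0 and 37.9 in V3. It then had 43.5, 21.1, 48.4 and 46.3 CPM in V4, 33.5, 23.2, 35.3 and 43.8 in V5, and 51.1, 37.8, 41.7 and 39.1 in V6. V1 was the lowest zone in all 4 mice, and mouse 2 was the lowest mouse in every zone. The slope was 0.26 ± 0.054 (adjusted p = 0.000534) and V6 minus V1 was 1.66 ± 0.33 (3.17-fold, adjusted p = 0.000373). The slopes within single mice ran from 0.21 to 0.38. With V1 left out the slope was 0.091 (adjusted p = 0.391). Abcc2 lies on chromosome 19 (43782192 to 43840740).

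The other multidrug resistance protein genes had no call. Abcc3, whose product exports glucuronides and bile salts across the basolateral membrane, had a mean of 25.1 ± 7.07 CPM at the bottom (V1) and 28.8 ± 8.98 at the tip (V6; SD, n = 4). Its slope was 0.020 ± 0.079 (adjusted p = 0.859). In the fit without mouse, the 95% interval of its V6 minus V1 ran from -0.78 to 1.20 (log2). That interval is wide enough to hold the value of Abcb1a or Abcg2. With mouse in the model the difference of Abcc3 was 0.19 ± 0.24 (SE, edgeR adjusted p = 0.540). Those of Abcb1a and Abcg2 were then 0.93 ± 0.18 and 0.81 ± 0.14, and intervals were not computed for that fit. Abcc10 had means of 7.79 ± 3.16 CPM (V1) and 8.66 ± 0.614 CPM (V6; SD, n = 4), with an interval from -0.63 to 0.93. Exons of Abcc10 overlap Dlk2 on the other strand. Below the filter, Abcc6 had 133 UMIs, Abcc5 had 70, Abcc1 had 39, Abcc4, the gene of a cyclic nucleotide exporter, had 9 and Abcc12 had 5. Their zone sums did not exceed 28 UMIs.

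**Figure D4:**
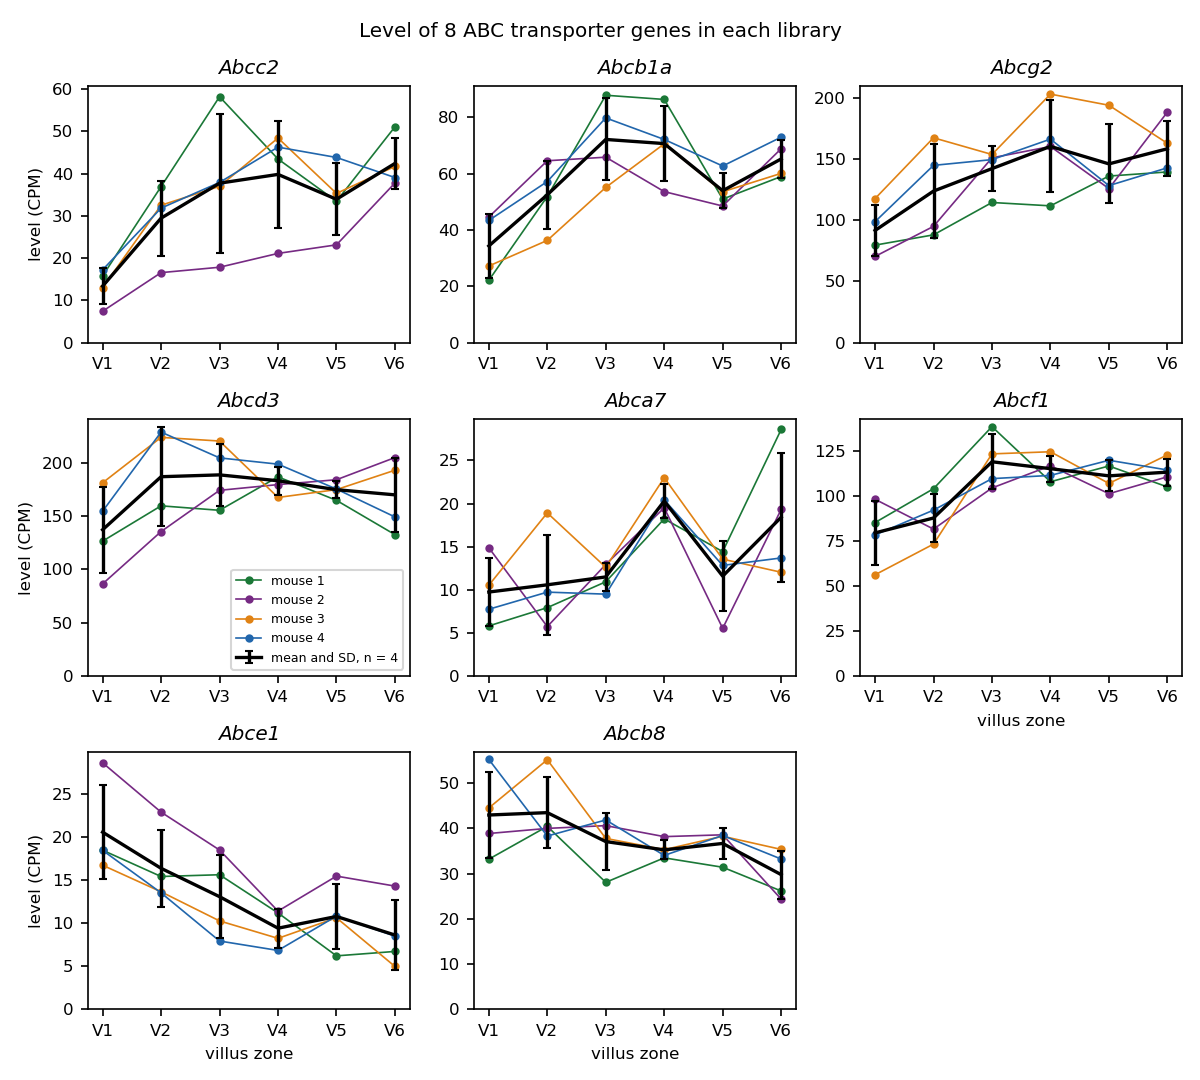
Level (CPM) of 8 ABC transporter genes in each zone, with 1 coloured line per mouse and the mean and SD of 4 mice in black. Abcc2, Abcb1a and Abcg2 are lowest in V1 in all 4 mice, and Abce1 is higher in V1 than in V6 in all 4.

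Abcd3 (PMP70), whose product brings branched chain acyl-CoA and bile acid precursors into peroxisomes, gave the most UMIs of the family. It had 126, 86.4, 181 and 155 CPM in V1 of mice 1 to 4, 160, 135, 224 and 229 in V2, and 155, 174, 220 and 205 in V3. It then had 187, 180, 168 and 199 CPM in V4, 165, 184, 175 and 175 in V5, and 133, 205, 193 and 149 in V6. V1 and V6 overlapped, since mouse 3 had 181 CPM in V1 and mouse 1 had 133 in V6. The slope was 0.035 ± 0.033 (adjusted p = 0.409). Slopes within mice were above 0 in 2 and below 0 in 2. V3 was above V1 in 4 of 4 mice. Abcd4, whose product takes part in the release of cobalamin from lysosomes, went from a mean of 14.3 ± 3.35 CPM (V1) to 17.6 ± 3.15 (V6; SD, n = 4), with an adjusted p of its edgeR slope of 0.618. Abcd2 had 2 UMIs.

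The quadratic contrast asked which genes bent away from a straight line along the villus, as the change in log2 level per squared zone step. A negative value covers both a peak in the middle zones and a rise that levels off. Of the 19 genes, 2 were called negative, beside 4.57% of all tested genes. Abcb1a was among them (-0.092 ± 0.025, adjusted p = 0.0229). In the fit with mouse the count was 7, with Abcb10, Abcc2, Abcd3, Abcf1 and Abcg2 added, beside 12.3% of all genes. Of these, Abcc2 had its highest mean in V6. edgeR called 0 of the 19 positive, beside 2.86% of all, with 0 at an unadjusted p under 0.05 and 0 by DESeq2 and limma-voom. The Abcb1a call ended without mouse 1 (adjusted p = 0.315), without mouse 3 (0.0775) and without mouse 4 (0.0943). Leaving out V1 ended both calls (adjusted p = 0.789 for Abcb1a).

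Abca7, of the A subfamily of lipid transporters, has a product that exports phospholipids. It had 5.80, 14.9, 10.5 and 7.73 CPM in V1 of mice 1 to 4, 7.92, 5.72, 18.9 and 9.72 in V2, and 10.9, 12.9, 12.6 and 9.48 in V3. It then had 18.2, 19.5, 23.0 and 20.4 CPM in V4, 14.4, 5.51, 13.5 and 12.8 in V5, and 28.6, 19.3, 12.0 and 13.7 in V6. V4 was above V3 and V5 in all 4 mice, and V1 and V6 overlapped. The slope was 0.18 ± 0.058 (adjusted p = 0.0166). It was 0.082 without mouse 1 (adjusted p = 0.358), and without mouse 4 it kept its size and lost its call (0.17, adjusted p = 0.0765). V6 minus V1 of Abca7 was 0.93 ± 0.34 by edgeR (adjusted p = 0.0332). That difference lost its call without mouse 1 (0.41, adjusted p = 0.466) and without mouse 4 (0.96, adjusted p = 0.104). Total UMI scaling also ended both calls of Abca7 (slope 0.11, adjusted p = 0.114, and V6 minus V1 0.57, adjusted p = 0.158). Its mean counts were 16.8 to 27 UMIs per library, by zone. Abca3, known for lung surfactant, had a slope of 0.016 ± 0.071 (adjusted p = 0.872), and its exons overlap D330041H03Rik on the other strand. Abca2, Abca5 and Abca14 had 61, 10 and 6 UMIs.

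**Figure D5:**
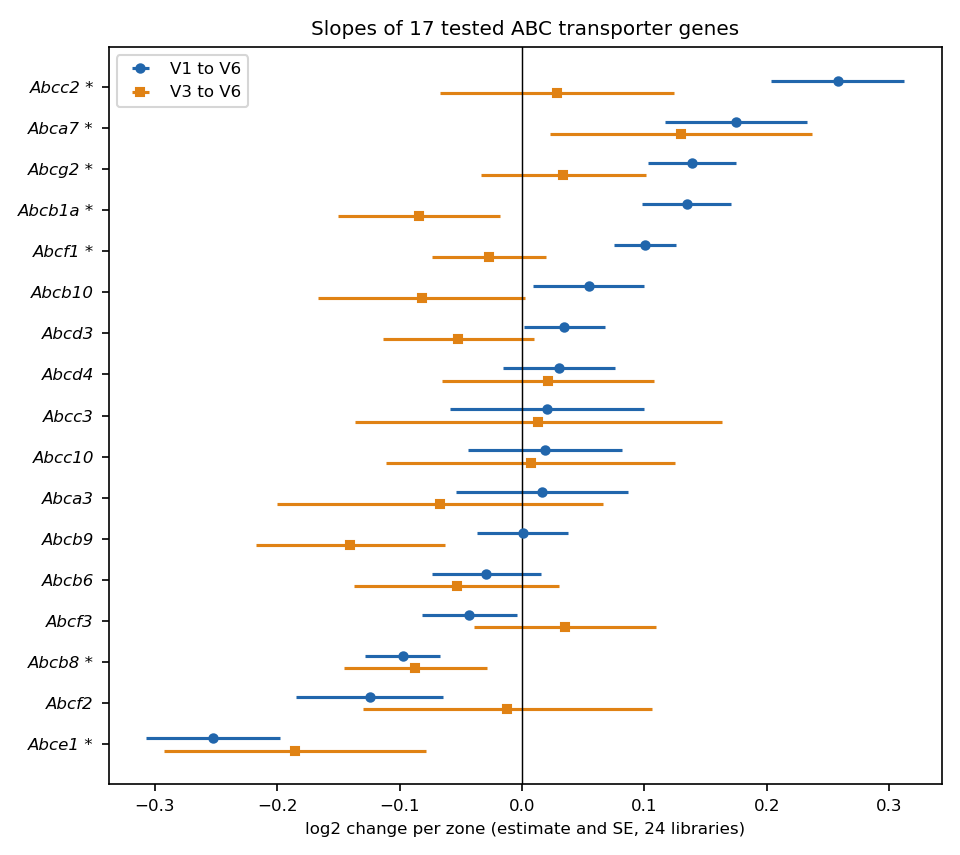
Slope of each of 17 tested genes in log2 change per zone with its SE, over V1 to V6 (circles) and over V3 to V6 (squares), from 24 libraries; stars mark genes called over V1 to V6. Abcb1a stands at 0.13 over V1 to V6 and at -0.084 over V3 to V6, and Abce1 at -0.25 and -0.19.

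Of the 4 soluble factors of the E and F subfamilies, Abce1 fell, Abcf1 rose, and Abcf2 and Abcf3 were not called. Over all tested genes, 22.1% rose and 22.8% fell. Abce1 splits ribosomes after translation ends. Its full values are given because it fell most steeply, a choice made after its values were seen. It had 18.4, 28.6, 16.7 and 18.4 CPM in V1 of mice 1 to 4, 15.4, 22.9, 13.6 and 13.5 in V2, and 15.6, 18.5, 10.2 and 7.90 in V3. It then had 11.2, 11.4, 8.21 and 6.81 CPM in V4, 6.18, 15.4, 10.6 and 10.8 in V5, and 6.69, 14.3, 4.95 and 8.47 in V6. Every V6 library was below every V1 library. The slope was -0.25 ± 0.055 (adjusted p = 0.000706) and V6 minus V1 was -1.28 ± 0.32 (0.412-fold, adjusted p = 0.00334). Over V2 to V6 the slope was -0.23 (adjusted p = 0.0581), and -0.22 with mouse in the model (adjusted p = 0.00515).

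Abcf1, whose product binds the initiation factor eIF2 and ribosomes, had 85.4, 98.4, 56.3 and 78.5 CPM in V1 of mice 1 to 4, 104, 81.7, 73.4 and 92.3 in V2, and 139, 105, 124 and 110 in V3. It then had 108, 117, 125 and 112 CPM in V4, 117, 101, 107 and 120 in V5, and 105, 111, 123 and 115 in V6. From V3 on, every library was above every V1 library. The slope was 0.10 ± 0.025 (adjusted p = 0.00246) and V6 minus V1 was 0.51 ± 0.15 (1.42-fold, adjusted p = 0.00920). That difference lost its call without mouse 3 (0.34, adjusted p = 0.0984) and without mouse 4 (0.50, adjusted p = 0.0604), and both its calls were lost under total UMI scaling (slope 0.034). Abcf2 had means of 12.2 ± 4.22 CPM (V1) and 8.10 ± 4.35 CPM (V6; SD, n = 4). Its slope was -0.12 ± 0.060 (adjusted p = 0.0940). Abcf3 had means of 31.6 ± 4.03 and 27.4 ± 7.55 CPM in those zones (SD, n = 4), and its slope was -0.043 ± 0.039 by edgeR (adjusted p = 0.378). Under total UMI scaling both were called lower (adjusted p = 0.0135 and 0.0253).

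Of the 5 genes of mitochondrial and lysosomal transporters in the B subfamily, 1 fell and 0 rose, beside the 22.8% and 22.1% of all genes. By edgeR none of the other 4 had an unadjusted p under 0.05 on the slope, and DESeq2 and limma-voom called none of them. Abcb8 encodes a transporter of the inner mitochondrial membrane. It had 33.2, 38.9, 44.5 and 55.3 CPM in V1 of mice 1 to 4, 40.5, 40.0, 55.2 and 38.3 in V2, and 28.1, 40.6, 37.8 and 41.9 in V3. It then had 33.5, 38.2, 35.3 and 34.0 CPM in V4, 31.4, 38.6, 38.3 and 38.5 in V5, and 26.2, 24.4, 35.4 and 33.2 in V6. V6 was below V1 in 4 of 4 mice, though the zones overlapped. The slope was -0.098 ± 0.031 (adjusted p = 0.0123) and V6 minus V1 was -0.52 ± 0.18 (0.696-fold, adjusted p = 0.0253). The slope lost its call without mouse 4 (adjusted p = 0.0628) and with every library thinned to the smallest (adjusted p = 0.0863). V6 minus V1 lost its call without mouse 2 (adjusted p = 0.0734) and without mouse 4 (0.140). Abcb8 lies on chromosome 5 (24393663 to 24410054).

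Abcb10, needed for heme synthesis, had means of 26.3 ± 8.85 CPM (V1) and 33.3 ± 9.13 CPM (V6; SD, n = 4) and a slope of 0.055 ± 0.045, and its exons overlap Gm45890 on the other strand. Abcb6, a porphyrin transporter gene, had a slope of -0.029 ± 0.044, with exons that overlap Gm29253 on the same strand. Abcb9, the gene of a lysosomal peptide transporter, had a slope of 0.00047 ± 0.037, and was higher in V3 than in V1 in 4 of 4 mice. Its exons overlap Gm34086 on the other strand. The adjusted p of these 3 slopes ran from 0.339 to 0.994.

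Across groups, every V6 library was above every V1 library for 5 of the 19 genes, among them Abcb1a, Abcc2, Abcf1 and Abcg2, beside 17.9% of all tested genes. Every V6 library was below every V1 library for 1 gene, Abce1, beside 16.5%. V6 minus V1 was called for the same 8 genes as the slope, with 20.2% of all tested genes called higher and 18.6% lower, which adds no separate evidence, as the libraries are shared.

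Among the genes below the filter, Abcc8, which encodes the sulfonylurea receptor of endocrine cells, had 10, 9, 5, 1, 2 and 4 UMIs in V1 to V6. Over the same zones the summed enteroendocrine markers had means of 2153, 2221, 961, 633, 773 and 4414 CPM. Abcb4, the gene of a phospholipid translocator of bile, had 5 UMIs in V1 and 0 in V2, and Abcg1, a sterol exporter gene known from macrophages, had 1 to 5 per zone. Pooled over the 4 libraries of a zone, a count of 0 allows a level of up to 0.441 to 0.560 CPM before TMM scaling, for counting error only. Of 9 listed markers of stroma and endothelium, 5 were among the counted genes, and these summed to between 1.14 and 11.3 CPM in single libraries. Col3a1 had 0 UMIs in 22 libraries, while the endothelial marker Pecam1 had counts in every library (mean 3.18 CPM). The summed lymphocyte markers had means of 16.8 ± 12.6 CPM (V1) and 142 ± 21.7 CPM (V6; SD, n = 4), and all 4 tested ones rose. Their part in the results was not tested. Paneth cell markers were also present, at means of 9247 to 21901 CPM per zone, with no gene of 7 called and 0 at an unadjusted p under 0.05. Of enteroendocrine markers 4 of 7 rose and 1 fell. Of crypt and dividing cell markers 3 of 7 fell (4 with mouse in the fit). Of tuft cell markers 1 of 2 tested rose, and the 1 tested myeloid gene was not called. These marker counts stand beside 22.1% of all tested genes called higher and 22.8% called lower (27.6% and 27.8% with mouse in the fit).

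Genes that work beside these transporters were read from the same fit. Over all tested genes, the slope over V1 to V6 was called higher for 22.1% and lower for 22.8%. With mouse in the model these shares were 27.6% and 27.8%. The counts of each list below stand beside these shares. Of 15 tested genes of xenobiotic sensing and metabolism, 9 rose and 1 fell over V1 to V6 (median slope 0.17 beside -0.0047 over all). Fitting mouse as well, 10 rose and 3 fell. The genes that rose included Por, the electron donor of cytochromes P450 (0.42 ± 0.027, adjusted p = 4.2e-11), Cyp3a13 (0.36 ± 0.046) and the drug exporter gene Slc47a1 (0.44 ± 0.065). Por was also called over V3 to V6 (0.31, adjusted p = 0.000222), and the other 14 were not; with mouse in that fit Cyp3a11 was called too (0.18, adjusted p = 0.0294). Nr1i2, the gene of the xenobiotic receptor PXR, rose by 0.11 ± 0.033 (adjusted p = 0.00839), while Nfe2l2 (NRF2) had 0.0087 ± 0.030 (adjusted p = 0.840). These regulators, Cyp3a11, and Lmbrd1 among the cobalamin genes, were chosen for mention after their values were seen. Cyp3a genes are near copies of each other, so their counts are uncertain where reads fit several.

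Of 12 tested genes of peroxisomal oxidation and assembly, 7 rose and 0 fell, beside 22.1% and 22.8% of all tested genes. At an unadjusted p under 0.05, 0 fell too, and the median slope was 0.084. Those that rose included the thiolase gene Acaa1b (0.20 ± 0.032, adjusted p = 2.0e-05) and the carnitine octanoyltransferase gene Crot (0.17 ± 0.027, adjusted p = 2.1e-05). Over V3 to V6, edgeR called 0 of the 12, in either direction. Of 4 tested genes of bile acid handling, Slc51b, a subunit of the basolateral bile acid exporter, rose (0.18 ± 0.072, adjusted p = 0.0483) and Nr1h4, the bile acid receptor FXR, fell (-0.11 ± 0.041, adjusted p = 0.0345). The other subunit gene Slc51a, with the highest level of the 4, had 0.013 ± 0.043 (adjusted p = 0.823). With mouse in the model 1 rose and 2 fell.

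Of 17 tested genes of heme and iron-sulfur cluster synthesis, 1 rose and 5 fell, beside 22.1% and 22.8% of all tested genes. Their median slope was -0.013. Those that fell included Glrx5, which passes on iron-sulfur clusters (-0.094 ± 0.029, adjusted p = 0.0104), and the mitochondrial iron importer gene Slc25a28 (-0.11 ± 0.035, adjusted p = 0.0135). Alas1, the first enzyme of heme synthesis, was the gene that rose (0.094 ± 0.038, adjusted p = 0.0480), and with mouse in the model 2 rose. Of 8 tested genes of ribosome release and initiation control, 1 rose and 2 fell, beside the same shares of all genes. Eif2s2 (-0.16 ± 0.029, adjusted p = 0.000134) and Eif2s1 (-0.13 ± 0.043, adjusted p = 0.0128) encode subunits of eIF2, and Nemf, of ribosome quality control, rose (0.13 ± 0.038, adjusted p = 0.00689).

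Of 9 tested cobalamin genes, 4 rose and 1 fell, beside 22.1% and 22.8% of all tested genes, with a median of 0.090. Amn (0.30 ± 0.035, adjusted p = 4.1e-07) and Cubn (0.56 ± 0.072, adjusted p = 1.2e-06) encode the receptor for the intrinsic factor complex, and Cd320, the transcobalamin receptor gene, fell (-0.30 ± 0.069, adjusted p = 0.00117). Lmbrd1, whose product works with that of Abcd4 in lysosomes, rose by 0.14 ± 0.029 (adjusted p = 0.000565). Of 3 ABC genes with other symbols, the peptide transporter gene Tap2 rose (0.087 ± 0.032, adjusted p = 0.0327), and Tap1 (0.063, adjusted p = 0.184) and the chloride channel gene Cftr (-0.086, adjusted p = 0.249) were not called. With mouse in the model 2 of these 3 rose. Kcnj8 and Kcnj11, the pore subunits that pair with sulfonylurea receptors, were not among the symbols of the count table, so they could not be tested.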

How the data were processed

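Polyadenylated RNA of 24 sorted jejunal samples was made into mcSCRB-seq libraries, which tag molecules with UMIs, per the labels' protocols. The authors deposited these as whole-number UMI counts, not normalized, in 1 table of genes by samples. The submitters' processing notes name bcl2fastq 2.15.0.4 and the GRCm38 build. Aligner, annotation release and strand setting: not given in the sources used here. A deposited sheet gives index sequences. Mice 1, 3 and 4 have 1 index each, and mouse 2 has V1 under the index of mouse 1 and 5 zones under another, so index and mouse nearly coincide.

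The members and gene lists were chosen with earlier results of these data known. The main test was edgeR 4.0.16 (R 4.3.3). Low genes were removed by filterByExpr with zone as group, at a count of 10 and a total of 15, libraries were scaled by TMM, and a quasi-likelihood model with robust dispersions and a mean per zone (18 residual degrees of freedom) gave the slope over V1 to V6 with zones taken as equally spaced, V6 minus V1, the quadratic contrast and the slope over V3 to V6. Intervals of 95% use 18 degrees of freedom. Slopes within a mouse used log2 CPM with 0.5 added to counts. Full values are given for genes called on the slope with a mean of at least 20 CPM and for the tested gene with the most UMIs in each role group. For lists, up to 3 called genes with the smallest adjusted p and the gene with the highest level could be named. Some genes that these rules cover are counted but not reported here. Alternatives were DESeq2 1.42.0, limma-voom (limma 3.58.1), other scalings and filters, thinning, mouse as a block, and leaving out mice or V1. Coordinates are from GENCODE M21 (GRCm38), which matched 17741 of 17811 identifiers. Figures used matplotlib 3.10.9.

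The mouse number in the labels pairs the zones of a mouse. Once zone means were removed, libraries of a mouse correlated at 0.407 on average (above 0.1 in 60 of 60 pairs, lowest 0.177), so a fit with a term for mouse (15 residual degrees of freedom) is given where it changes a call. Within a zone no libraries were copies, since chi-square per degree of freedom was 3.77 to 32.0 over the 36 pairs. Pairs from different zones were not compared in this way.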

Additional observations from a re-analysis of the deposited data

Results flagged for a closer look

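In 84 groups of 4 libraries (9 ABC transporter genes, their family's sum and 4 marker sums, in 6 zones), 6 had a library far from the other 3, where chance gives about 1 in 20 groups. Abcb8 had 55.2 CPM in V2 of mouse 3, with the others at 38.3 to 40.5. Abcb8 also had 31.4 CPM in V5 of mouse 1, with the others at 38.3 to 38.6. Abce1 had 28.6 CPM in V1 of mouse 2, with the others at 16.7 to 18.4. Abcg2 had 114 CPM in V3 of mouse 1, below the 149 to 154 of the others. Abcg2 also had 194 CPM in V5 of mouse 3, above the 126 to 136 of the others. The summed lymphocyte markers had 138 CPM in V3 of mouse 3, with the others at 16.0 to 27.6.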

How the results depend on the processing

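Of 1090 values for single ABC transporter genes under the alternatives, 1036 kept their side of the threshold, 38 lost a call, 16 gained one and 0 called values changed sign, while 112 estimates without a call in either fit changed sign. Many of these values had no call in the main fit, among them all 19 tested genes over V3 to V6. The 1036 therefore do not measure how firmly the calls held. DESeq2 size factors in edgeR, DESeq2 itself, limma-voom, no filter and a mean of at least 10 CPM left the 6 rises and 2 falls of the slope as they were. Without V1 there were 0 rises, 0 falls and 0 genes with a negative quadratic call, and with the block added 3 rises, 2 falls and 1 negative call. Total UMI scaling gave 2 rises and 4 falls on the slope, 3 rises for V6 minus V1 and 1 negative quadratic call. Thinning to the smallest library left 1 fall on the slope, with and without the replicate block. No filter, with 17680 genes tested, left 1 fall for V6 minus V1. Which part of that setting ended the other call was not tested. With mouse as a replicate block 7 genes had a negative quadratic call, and 5 after thinning. Besides these genes the block changed only the call of Abcf2, and so no other call of an ABC gene. Leaving out 1 mouse gave 5 to 6 rises and 1 to 3 falls on the slope, 4 to 5 and 1 to 2 for V6 minus V1, and 1 to 3 negative quadratic calls. The counts over all genes in those fits are given below. Thinning ended the slope call of Abcb8, while those of Abca7 and Abce1 held.

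Over all tested genes, the slope called 2063 higher and 2126 lower. The counts were 1217 and 3720 under total UMI scaling, 862 and 256 without V1, and 1191 lower without V1 with the block. Without 1 mouse, with 9263 to 9445 genes tested, the slope called 1510 to 1879 higher and 1293 to 1777 lower. V6 minus V1 called 1882 and 1737, and 1152 and 3102 under total UMI scaling. Without 1 mouse it called 1258 to 1634 higher and 982 to 1464 lower. The quadratic contrast called 267 positive and 426 negative. With the block these were 891 and 1148, with thinning and the block 679 and 855, without V1 35 and 17, and 162 positive without V1 with the block. Without 1 mouse they ran from 123 to 196 and from 138 to 381. Over V3 to V6, 236 were called higher and 2 lower. The block gave 552 and 56, thinning with the block 380 and 37, and V2 to V6 with the block 589 and 64. The lower count was 9 under total UMI scaling, 4 in DESeq2, 1 with no filter and in limma-voom, and 0 with thinning and with a mean of at least 10 CPM. Without 1 mouse these ran from 89 to 197 and from 0 to 1.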
